A study of Mus musculus with 4 samples.

Results

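Sebaceous gland spots were 321 of 6411 spots kept on 4 slices of mouse dorsal skin measured by spatial transcriptomics, in which poly(A) RNA from a tissue section is captured on an array of barcoded spots. They were chosen by the level of 6 sebaceous genes: *Fa2h*, *Cyp2g1*, *Far2*, *Cidea*, *Aadac* and *Paqr7*. Each spot with at least 250 detected genes was scored by the mean over these genes of ln(1 + UMIs per 10000 UMIs of the spot), where a UMI is 1 captured RNA molecule, and the top 5% within each slice were taken. This gave 82 of 1649, 88 of 1751, 78 of 1555 and 73 of 1456 spots in slices 1 to 4. Since these genes chose the spots, their own levels are described and not tested, and they are left out of every count of genes below.

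The skin was that of at least 3 mice, Krox20-CreERT; R26-tdTomato, sampled at postnatal day 38 after they had received 4-hydroxytamoxifen at postnatal day 2. In these mice CreERT is knocked in behind the Krox20 (*Egr2*) coding sequence, so recombination is limited to cells that expressed *Krox20* while the drug acted. Each slice held 1 skin section from each of 3 mice. The 4 slices were technical replicates of the same animals, so errors and p-values below measure the spread between slices and not between mice. The study left a section with distorted structure out of its analysis. Which spots or which slice held that section is not known here, and no spots were left out on its account. Whether that section came from a further mouse is not known either. All samples shared this genotype, age and treatment, and no condition was compared. Total UMIs per slice were 26910422, 24128004, 21384253 and 19393026, and the sums over the sebaceous spots were 1004464, 701064, 667680 and 829168. A spot covers a small area that can hold cells of several types, and fewer cells of a type and less RNA per cell cannot be told apart in it.

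The sebaceous gland is a lipid-secreting appendage of the hair follicle that opens into the upper follicle through a short duct. Its cells, the sebocytes, arise from a basal layer of dividing progenitors, fill with lipid droplets as they mature and finally break down to release sebum, a mixture of wax esters, triglycerides, cholesterol esters and free fatty acids. Sebum production needs fatty acid synthesis, elongation and desaturation, the joining of fatty acids to glycerol, fatty alcohols or sterols, and the nuclear receptor PPARγ, which drives sebocyte differentiation.

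The score genes were concentrated in few spots. Of the 321 spots, 185 held UMIs of all 6 genes, 102 of 5, 31 of 4 and 3 of 3, whereas 36 of the 6090 other spots held all 6 and 2784 held none. The cut fell on a continuous range of scores: the lowest sebaceous spots scored 1.05, 1.09, 1.016 and 0.981 in slices 1 to 4, and the highest other spots scored 1.04, 1.09, 0.997 and 0.981. When spots were chosen with only *Fa2h*, *Cyp2g1* and *Far2*, 284 of the 321 were chosen again, and with only *Cidea*, *Aadac* and *Paqr7* 266 were. The 3 genes left out of a score were also high in the spots it chose. All 6 genes were chosen together, with earlier results of these data known. These values therefore describe the score and do not check the label. *Cidea* was at 515, 544, 508 and 453 CPM (UMIs of the gene per 1000000 UMIs of the set) in slices 1 to 4 in the spots chosen without it, against 22.8, 23.1, 20.3 and 21.01 in the others. *Fa2h*, which makes the hydroxylated fatty acids of skin lipids, was at 1058, 1139, 1075 and 956 in the spots chosen without it, against 34.0, 33.0, 33.7 and 37.7.

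The spots lay in narrow bands along the skin and mostly beside one another. A neighbouring sebaceous spot was found for 208 of the 321, and 113 stood alone. This share was 64.6%, 69.3%, 60.3% and 64.4% in slices 1 to 4, against 18.1%, 16.2%, 18.1% and 17.7% of the other spots that touched a sebaceous spot, and no slice's values overlapped (mean difference 47.1 ± 4.52 percentage points, SD, n = 4 slices; exact two-sided sign-flip permutation test, p = 0.12, the smallest that 4 slices allow). With a spot that stood alone counted as a group, there were 46, 43, 48 and 42 groups in slices 1 to 4, of which 29, 27, 31 and 26 were single spots and the largest held 9, 14, 5 and 10 spots. The sebaceous spots were shallower than the rest, with medians of 11044, 6874, 8391 and 10695 UMIs per spot against 14802, 12289, 12182 and 11710, and the same was so in 4 of 4 slices (exact sign-flip permutation p = 0.12). The mitochondrial share of UMIs was higher in 4 of 4 slices, at 4.18%, 5.54%, 5.93% and 6.10% against 3.41%, 4.42%, 4.597% and 5.18% (exact sign-flip permutation p = 0.12). Results after thinning every spot to 5000 UMIs are given below and in the closing section.

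**Figure D1:**
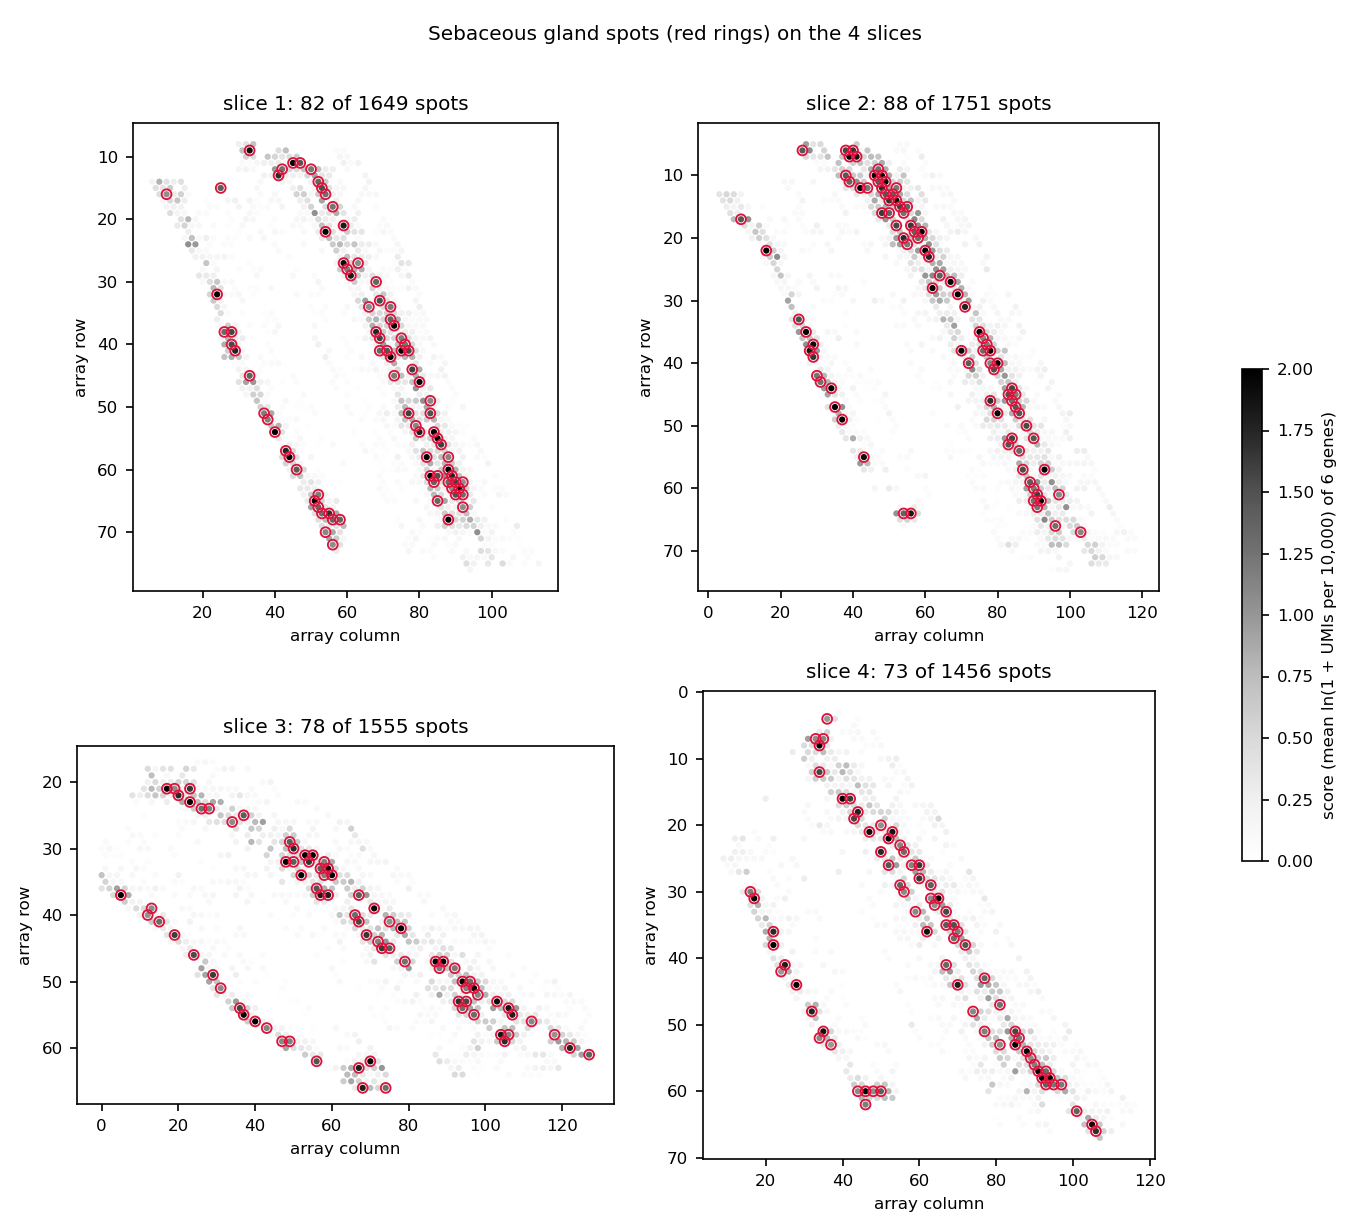
The 4 slices, with every kept spot at its array column and row and shaded by the score. Red rings mark the 82, 88, 78 and 73 sebaceous gland spots, which run in bands along the skin sections.

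The label was checked with 10 sebocyte markers that were no part of the score. All 10 of 10 were higher in the sebaceous than in the other spots (edgeR's quasi-likelihood test with the slice as a block, Benjamini-Hochberg adjusted p under 0.05 and at least 2-fold, the rule for a call throughout), with a median log2 fold of 2.64 against -0.03 over all 13685 genes tested. By that rule 9.24% of all genes tested were higher in the sebaceous spots and 6.27% were lower. *Scd1*, a stearoyl-CoA desaturase (chromosome 19, 44394455 to 44407879, minus strand, GRCm38), was at 4220.2, 5366, 5133 and 4449 CPM in slices 1 to 4 of the sebaceous spots and at 375, 386, 421 and 468 in the others. The ranges did not come near each other, and the ratio was 11.6-fold (log2 fold 3.53 ± 0.08, SE; adjusted p = 5.78e-28 by edgeR). Within single sebaceous spots *Scd1* ranged from 1028 to 17062 CPM, with a median of 4162. *Mc5r*, a melanocortin receptor of sebocytes, had the smallest fold of the 10 markers, at 64.5 ± 9.09 CPM against 29.5 ± 5.07 (SD, n = 4 slices; log2 fold 1.15). Against the spots beside the sebaceous spots, a comparison described below, 9 of 10 markers were higher and 0 lower (median log2 fold 2.32). *Mc5r* was not called there.

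Across all genes, 1264 were called higher and 858 lower in the sebaceous spots. After thinning to 5000 UMIs per spot, which left out 40 sebaceous and 377 other spots and after which the top 5% were chosen again (299 spots, of which 253 were among the 321), 713 were higher and 670 lower, and with each slice cut into 3 strips that served as blocks 824 were higher and 725 lower. The largest rises outside the score genes included *Cyp1a1*, a cytochrome P450 induced by the aryl hydrocarbon receptor (log2 fold 5.44 ± 0.24, SE), the serine protease inhibitors *Serpina3j* (5.25 ± 0.09) and *Serpina3b* (5.13 ± 0.09), and the patatin-like lipase *Pnpla5* (5.09 ± 0.15). They further held *Hsd3b6*, a 3β-hydroxysteroid dehydrogenase, the hepcidin gene *Hamp2* (4.92), the wax synthase *Awat1*, *Tmem45b* (4.77), *Cyp17a1*, the 17α-hydroxylase of androgen synthesis (4.67), *Acoxl* (4.62), the peroxisomal thiolase *Acaa1b* and *Rarres1*, a retinoic acid responder gene (4.58). The other 3 of the 15 largest were the less described *Gm35986*, *C130079G13Rik* and *Gm5678*, and *Gm35986* overlaps the start of *Elovl6* on the opposite strand. *Serpina3j* was at 717, 793, 704 and 636 CPM in the sebaceous spots of slices 1 to 4 and at 17.1, 20.3, 16.8 and 20.7 elsewhere, with no overlap. The *Serpina3* and *Scd* genes are families of closely related copies, and reads shared between copies may be split or lost in counting, so the folds of single members are less certain.

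Since markers of dermis and epidermis were also higher in the sebaceous spots than in all other spots, as given below, the sebaceous spots were also compared with the 1065 other spots that lay 1 grid step from a sebaceous spot, a comparison added after the data had been seen. Of 10495 genes tested there, 234 (2.23%) were higher and 36 (0.343%) lower in the sebaceous spots. Of the 234, 206 had also been called higher against all other spots, which is 88.0% of these and 16.3% of the 1264. The comparisons share the sebaceous spots, and those beside them are part of all other spots, so each is given with its own values. Where a pair of log2 folds is given without further words, the first is over all other spots and the second over the spots beside. Whether spots beside a sebaceous spot hold the edge of a gland was not tested. *Scd1* there was at 872, 1018, 990.0 and 1000.0 CPM, above all other spots and below the sebaceous ones in 4 of 4 slices.

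**Figure D2:**
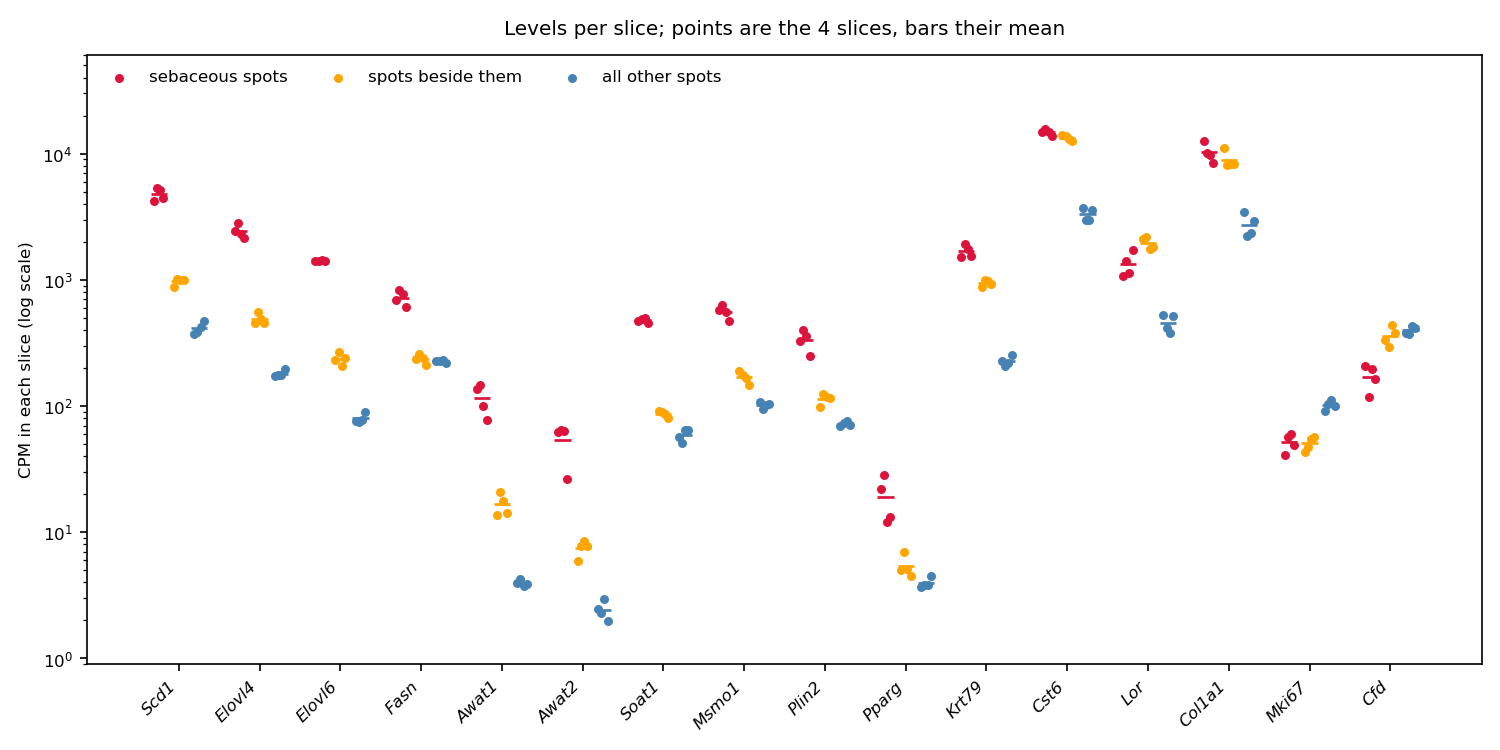
CPM (log scale) of 16 genes in the sebaceous spots, the spots beside them and all other spots, with a point for each of the 4 slices and a bar at their mean. For *Scd1*, *Elovl4*, *Elovl6*, *Awat1* and *Soat1* the 3 sets are separate, whereas *Cst6*, *Col1a1* and *Mki67* in the sebaceous spots lie close to the spots beside them.

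Most genes of fatty acid synthesis, desaturation and elongation were higher in the sebaceous spots. Of 25 measured genes of this list, 15 were higher and 2 lower in the sebaceous spots, with a median log2 fold of 1.47, and 13 of 23 were higher and 0 lower against the spots beside them (median 1.31, against -0.01 over all genes). The largest folds were those of *Scd3*, a second desaturase (log2 fold 4.54), *Elovl6*, which extends palmitate (4.15), *Acacb*, an acetyl-CoA carboxylase (3.83), and *Elovl4*, which makes very long chains (3.74). *Elovl6* (chromosome 3, 129532355 to 129638495, plus strand) was at 1414, 1399, 1438 and 1409 CPM in slices 1 to 4, 230.2, 266, 208 and 241 beside the sebaceous spots and 76.5, 74.7, 77.1 and 90.3 in all other spots. The 3 sets did not overlap, and the fold was 17.8 over all others and 6.10 over the spots beside (adjusted p = 1.53e-29 and 1.18e-24 by edgeR). *Elovl4* (chromosome 9, 83778692 to 83806277, minus strand) was at 2437, 2809, 2314 and 2138 against 173, 176, 177 and 196 CPM in all other spots, again without overlap. *Elovl3*, an elongase of sebum and hair lipids, differed as much from the spots beside (log2 fold 2.32) as from all others (2.27), and so did *Fasn*, the fatty acid synthase (1.63 over the spots beside and 1.67 over all others).

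Not every enzyme of this list was high. *Scd2*, the desaturase found in many tissues, was lower, at 137, 124, 138 and 123 CPM in slices 1 to 4 against 303, 321, 329 and 310.4 (log2 fold -1.28 ± 0.09, SE; adjusted p = 6.16e-14 by edgeR), while against the spots beside it stood at -0.27 and was not called. *Fads2*, a desaturase of polyunsaturated fatty acids, was also lower than in all other spots (log2 fold -1.35). *Acaca*, the carboxylase of cytosolic fatty acid synthesis, had a log2 fold of 0.12 ± 0.13 and was not called (adjusted p = 0.502 by edgeR), with 46.8, 45.6, 34.4 and 47.04 against 38.4, 36.03, 43.1 and 43.96 CPM. *Scd2*, *Fads2*, *Acaca*, *Elovl3* and *Fasn* were named after their values had been seen.

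Enzymes that activate fatty acids and join them into esters were also higher in part. Of 21 measured genes 11 were higher and 0 lower (median log2 fold 1.02), and 9 of 19 were higher than in the spots beside (median 0.59). The wax synthases led the list. *Awat1* (chromosome X, 100572251 to 100578205, plus strand) was at 137, 147, 100.3 and 77.2 CPM in slices 1 to 4, 13.7, 20.97, 17.6 and 14.2 in the spots beside and 3.94, 4.23, 3.77 and 3.88 in all others, with no overlap between sets (log2 fold 4.86 ± 0.14, SE, over all others; adjusted p = 2.57e-24 by edgeR). *Awat2* (chromosome X, 100402221 to 100442717, minus strand) was at 61.7, 64.2, 62.9 and 26.5 against 2.47, 2.31, 2.94 and 1.99 in all other spots, and its slice 4 value lay below the rest but above every other set (log2 fold 4.44). *Soat1*, which esterifies cholesterol, was at 475, 489, 500.2 and 456 against 57.1, 50.7, 64.7 and 64.6 CPM (log2 fold 3.02), and *Acsl4*, an acyl-CoA synthetase, had a log2 fold of 2.60. The triglyceride synthases differed from each other: *Dgat1* was called higher (log2 fold 1.97 over all others and 1.34 over the spots beside), while *Dgat2* stood at 0.93 and 0.14 and was called in neither of these comparisons. *Acsl5* was called higher (log2 fold 2.09), and *Acsl1*, the long-chain synthetase abundant in fat and liver, had a log2 fold of -0.04 that was not called (adjusted p = 0.850 by edgeR).

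Genes of cholesterol synthesis were called higher in the sebaceous spots by both comparisons, with more genes called against the spots beside. Of 24 measured genes 8 were higher than in all other spots and 14 of 24 higher than in the spots beside, and 0 and 0 were lower (medians 0.71 and 1.11). *Msmo1* (chromosome 8, 64718139 to 64733792, minus strand), a sterol methyl oxidase, was at 573, 633, 557 and 469 CPM in slices 1 to 4, 189.5, 175, 167 and 146 beside the sebaceous spots and 108, 94.04, 102 and 103 elsewhere. The 3 sets did not overlap (log2 fold 2.44 ± 0.08, SE, over all others; adjusted p = 2.64e-22 by edgeR), and the log2 fold over the spots beside was 1.74. *Acat2*, a thiolase at the start of the pathway, was at 151, 153, 178 and 168 CPM against 44.9, 50.2, 52.7 and 45.1 in the spots beside and 42.5, 44.5, 46.97 and 45.95 in all others. It was above both in every slice (log2 folds 1.85 and 1.78), while the spots beside and all others overlapped. The difference in the number of calls between the comparisons was not tested.

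The 250 bases before the start of each called gene were searched in RefSeq promoters (GRCm38.p6, first entry for a symbol; 10633 tested genes matched) for letters that are known from sterol and lipid genes. CCAAT, the box read by NF-Y, stood on either strand (as CCAAT or ATTGG) in 6 of 7 called cholesterol genes with a promoter entry, 7 of 13 fatty acid synthesis genes, 4 of 10 ester synthesis genes and 6 of 15 peroxisome genes, against 36.2% of all. GGGCGG, the GC box, stood in 6 of 7, 8 of 13, 4 of 10 and 10 of 15, against 58.1%. The exact letters TCACCCCAC of a sterol response element stood in none of these genes and in 0.527% of all. No motif contains another, and a match describes letters, not binding. The 3 called cholesterol genes with CCAAT and the largest log2 folds are shown 5′ to 3′ up to the base before the start, in lower case with each CCAAT or ATTGG in capitals, since they let the spacing of the boxes be read.
Msmo1 (chr8:64733579-64733828, minus strand): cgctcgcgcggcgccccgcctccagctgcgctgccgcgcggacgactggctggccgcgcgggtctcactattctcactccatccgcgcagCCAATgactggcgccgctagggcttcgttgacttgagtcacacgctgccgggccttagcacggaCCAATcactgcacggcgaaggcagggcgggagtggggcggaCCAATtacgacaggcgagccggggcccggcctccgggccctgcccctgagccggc
Tm7sf2 (chr19:6067851-6068100, minus strand): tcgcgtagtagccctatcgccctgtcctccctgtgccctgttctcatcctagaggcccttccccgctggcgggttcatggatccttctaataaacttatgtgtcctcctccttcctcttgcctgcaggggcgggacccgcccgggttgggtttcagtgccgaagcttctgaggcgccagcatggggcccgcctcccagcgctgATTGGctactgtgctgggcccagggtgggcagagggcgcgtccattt
Mvd (chr8:122443423-122443672, minus strand): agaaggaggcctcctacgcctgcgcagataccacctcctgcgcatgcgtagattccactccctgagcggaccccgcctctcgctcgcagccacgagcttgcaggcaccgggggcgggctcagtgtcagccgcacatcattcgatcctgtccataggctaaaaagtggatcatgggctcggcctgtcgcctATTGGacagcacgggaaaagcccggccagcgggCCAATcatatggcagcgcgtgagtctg
In *Msmo1* the boxes began 160, 96 and 55 bases before the start, in *Tm7sf2* 47 and in *Mvd* 60 and 27, counted from the RefSeq start. That start equals the outermost start in GENCODE M21 for *Mvd*, but lies 214 bases inside the *Msmo1* gene and 523 inside *Tm7sf2* as GENCODE draws them, so these stretches overlap the genes' transcribed part there. The folds of *Msmo1* and *Mvd*, the mevalonate decarboxylase, over all other spots were 5.44 and 3.21.

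Peroxisomes shorten very long chains and make ether lipids, and 20 of 42 measured genes of this list were higher and 1 lower (median log2 fold 0.79). Against the spots beside, 11 of 39 were higher and 0 lower (median 0.69). *Acaa1b*, a thiolase of peroxisomal β-oxidation, was at 86.6, 121, 123 and 71.2 CPM in slices 1 to 4 and at 3.94, 3.46, 4.01 and 5.06 in all others. These ranges were far apart, with a log2 fold of 4.59 ± 0.17 (SE; adjusted p = 2.35e-21 by edgeR). The membrane protein *Pxmp4* (log2 fold 3.32) and the oxidase *Acox3* (3.12) came next. *Cat*, catalase, rose by 1.56, and *Crat*, carnitine acetyltransferase, differed as much from the spots beside (1.91) as from all others (1.92). *Agps*, an enzyme of ether lipid synthesis, had a log2 fold of -0.98 and was not called. In mitochondrial fatty acid oxidation 1 of 17 genes was higher and 2 were lower (median 0.22), and 0 of 14 were called against the spots beside in either direction (median 0.32). The called genes were *Cpt1c*, higher, and *Ppargc1a* and *Cpt1b*, which are known from muscle and fat, lower.

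In sphingolipid and barrier lipid synthesis 9 of 22 genes were higher and 0 lower than in all other spots (median log2 fold 0.60), but 4 of 21 against the spots beside, where the median was -0.03. Besides *Elovl4*, the leading gene was *Cers4*, a ceramide synthase, at 1017, 1244, 1276 and 1111 CPM in slices 1 to 4 against 184, 218, 230.3 and 185 in the spots beside and 83.6, 83.3, 94.3 and 90.7 in all others. It separated all 3 sets (log2 folds 3.72 and 2.53). Lipid droplet genes went both ways against all other spots, with 3 of 14 higher and 3 lower (median 0.19), while 3 of 14 were higher and 0 lower than in the spots beside (median 0.17). The 3 higher genes, the same in both comparisons, were *Mgll*, monoglyceride lipase (log2 fold 2.84), the droplet coat gene *Plin2* (2.18) and *Fitm2*, which partitions fat into droplets (1.84). *Plin2* was at 326, 397, 361 and 249.6 CPM in slices 1 to 4 against 69.8, 72.8, 75.8 and 71.2. The genes lower than in all other spots were *Fitm1*, *Cidec* (log2 fold -1.04), which fuses droplets in adipocytes, and *Lipe*, hormone-sensitive lipase (-1.02). *Plin1* and *Plin4*, further adipocyte droplet coats, had log2 folds of -0.43 and -0.99 and were not called.

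Steroid and retinoid metabolism held 9 higher and 3 lower of 26 measured genes (median log2 fold 0.53), and 5 higher and 0 lower of 22 against the spots beside. *Hsd3b6* was at 87.6, 64.2, 68.9 and 42.2 CPM in slices 1 to 4, 10.7, 9.87, 9.37 and 8.21 in the spots beside and 2.32, 1.79, 1.93 and 1.78 in all others. No values overlapped (log2 fold 5.05 ± 0.20, SE, over all others; adjusted p = 1.41e-20 by edgeR). The retinol dehydrogenases *Sdr16c5* (log2 fold 3.29), *Sdr16c6* (2.84) and *Rdh11* (2.50) rose together, and were higher than in the spots beside as well (2.13, 1.49 and 2.07). *Cyp26b1*, which breaks down retinoic acid, was called higher than in all other spots (2.20) but not than in the spots beside (0.72). Lower were *Aldh1a3*, which makes retinoic acid (-1.77), the cholesterol carrier *Star* and the retinol receptor *Stra6* (-1.17).

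Among nuclear receptors and transcription factors 7 of 24 were higher and 1 lower than in all other spots (median log2 fold 0.45), and 1 of 22 against the spots beside. That gene was *Pparg*, at 21.9, 28.5, 11.98 and 13.3 CPM in slices 1 to 4 against 5.05, 6.99, 5.07 and 4.48 in the spots beside and 3.71, 3.80, 3.81 and 4.47 in all others. Slices 1 and 2 were higher than 3 and 4, yet every slice was above both sets (log2 folds 2.26 ± 0.28 and 1.84 ± 0.27, SE; adjusted p = 3.12e-08 and 7.71e-06 by edgeR). *Gata6*, a factor of the sebaceous duct, was higher than in all other spots (log2 fold 2.57) and stood at 0.66 against the spots beside (adjusted p = 0.0900 by edgeR). *Cebpa*, a factor of sebocytes and fat cells, was called against all others only (1.43 and 0.73). *Lef1*, a Wnt factor of the hair matrix, was lower than in all other spots (-1.91) and stood at -0.17 against the spots beside. *Srebf1*, which drives lipid synthesis genes, had log2 folds of 0.57 and 0.50 and was called in neither, but it was called higher than in the upper follicle spots described below (1.47 ± 0.30, SE; adjusted p = 6.82e-04 by edgeR).

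Of 34 genes of oxidant and xenobiotic defence 10 were higher and 0 lower (median log2 fold 0.27), and 3 of 33 against the spots beside. *Cyp1a1* (chromosome 9, 57687928 to 57703824, plus strand) was at 46.8, 48.5, 37.4 and 33.8 CPM in slices 1 to 4, 3.36, 4.93, 2.34 and 4.10 in the spots beside and 1.004, 1.11, 0.579 and 1.08 in all others, the largest fold over all other spots by the naming rule. *Mgst1*, a membrane glutathione transferase, was at 961, 1024, 1048 and 989 against 339.7, 323, 329 and 321 (log2 fold 1.61), and *Aldh3a1* had log2 folds of 2.92 over all others and 0.86 over the spots beside. Antimicrobial genes gave 4 higher and 2 lower of 9 measured, and 0 called of 6 against the spots beside. In the list of DNA breakdown, lysosome and autophagy genes 2 of 23 were higher than in all others, *Map1lc3a* and *Ctsd* (1.02), and 0 against the spots beside.

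Genes of the upper follicle and the duct were also detected in the sebaceous spots. Whether their RNA came from follicle cells or from the gland and its duct was not tested. Of 12 stem cell and duct genes 7 were higher and 0 lower than in all other spots (median log2 fold 1.17), but 0 of 11 were called higher than in the spots beside (median 0.10). *Krt79*, a keratin of the sebaceous duct and infundibulum, was at 1524, 1928, 1751 and 1532 CPM in slices 1 to 4, 884, 994, 978 and 918 in the spots beside and 228, 209, 219.8 and 252 in all others. The sets did not overlap, and the fold was 7.37 over all others but 1.81 over the spots beside. *Cst6*, a cystatin of the infundibulum, was at 14774, 15561, 14916 and 13839 against 14046, 13692, 12966 and 12628 in the spots beside (log2 fold 0.17).

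The genes followed by the study were given in the same way. *Egr2* (Krox20) was at 48.8, 71.3, 49.4 and 60.3 CPM in slices 1 to 4 of the sebaceous spots, 61.96, 81.01, 65.97 and 83.2 in the spots beside and 30.2, 32.95, 29.6 and 38.1 in all others. It was higher than in all others (log2 fold 0.79 ± 0.12, SE; adjusted p = 3.02e-06 by edgeR, under 2-fold) and below the spots beside in 4 of 4 slices, a difference that did not pass the test (log2 fold -0.33 ± 0.11; adjusted p = 0.0562). *Lrig1*, a stem cell marker of the junctional zone, had log2 folds of 0.68 and -0.30. *Lgr6*, a stem cell marker above the bulge, was at 12.9, 17.1, 17.97 and 14.5 against 8.13, 8.22, 6.25 and 10.1 in the spots beside and 6.52, 6.62, 5.99 and 6.36 in all others (log2 folds 1.26 and 0.92). *Nes*, the bulge marker Nestin, had log2 folds of -0.23 and -0.12 with adjusted p-values of 0.375 and 0.813 by edgeR. For the bulge keratin *Krt15* they were 1.47 and 0.08, for *Ly6a* (Sca1) 1.09 and 0.10, for *Thy1* 1.43 and 0.31, for the basal keratin *Krt14* 0.54 and -0.56, and for loricrin, *Lor*, 1.52 and -0.56.

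Markers of other tissue moved with the sebaceous spots when all other spots were the comparison, and far less when the spots beside them were. All 7 of 7 interfollicular epidermis markers were higher (median log2 fold 1.52). Their summed level was 5087, 6503, 5712 and 7727 CPM in slices 1 to 4, with *Krt77* the most abundant, against 2455, 1883, 1839.6 and 2557 in all other spots and 10002, 9559, 8612 and 8868 in the spots beside, where 0 were higher and the median was -0.56. Fibroblast markers gave 5 of 7 higher, summed at 29930.4, 29109, 24669 and 21005 against 8914, 7362, 7101 and 7993 in all others and 26294, 23294, 21377 and 20175 in the spots beside, with *Col1a1*, the main collagen of the dermis, the most abundant. Of antigen-presenting and other immune cell markers 6 of 8 were higher, with sums of 1955, 2001, 1249 and 1034 against 457, 408, 334 and 439 and 1518, 1396, 1042 and 1123, led by *Cd74*. No marker of these 3 lists was at 0, and none was called against the spots beside. Their part in the results over all other spots was not tested.

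Smooth muscle differed from these lists in that markers were also called against the spots beside, with 5 of 6 markers higher than in all others and 2 of 6 higher than in the spots beside (medians 2.19 and 0.85). The list's sum was 682, 822, 548 and 701 CPM in slices 1 to 4, 349, 512, 369 and 336 beside and 196, 209.8, 189 and 206 elsewhere, with *Acta2* the most abundant. Against the upper follicle spots described below 0 of 6 were called (median 0.53), and the sum there was 403, 642, 663 and 324, above the sebaceous spots in slice 3. *Myh11*, smooth muscle myosin, was at 73.7, 82.7, 56.9 and 83.2 against 24.95, 50.99, 35.9 and 33.2 in the spots beside, above them in every slice (log2 fold 1.11 ± 0.14, SE; adjusted p = 5.21e-07 by edgeR). The arrector pili, the muscle of the hair follicle, lies next to the gland. Endothelial markers gave 1 of 6 higher than in all others (median 0.63), Schwann cell markers 0 of 6 (median 0.53) and outer root sheath markers 1 of 5 (median 0.23).

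Markers of the deeper follicle and the tissue under it were lower than in all other spots, but not absent. Inner root sheath markers summed to 13460 ± 2518 CPM in the sebaceous spots and hair shaft markers to 3167 ± 1264 (SD, n = 4 slices). In all other spots these sums were 35955 ± 1907 and 7228 ± 1850. All 7 of 7 inner root sheath, 7 of 7 hair shaft, 6 of 6 melanocyte and 7 of 7 skeletal muscle markers were lower than in all other spots (median log2 folds -1.46, -1.24, -1.82 and -2.21), and none of these was called against the spots beside. Cell cycle genes gave 10 of 19 lower and 0 higher (median -1.02), but 0 called of 17 against the spots beside (median 0.04). *Top2a*, a topoisomerase of dividing cells, was at 17.9, 14.3, 13.5 and 24.1 CPM in slices 1 to 4, 23.8, 18.9, 19.1 and 22.4 in the spots beside and 48.2, 50.4, 48.8 and 50.9 in all others, so it overlapped the spots beside and lay below the rest of the skin. The 10 largest falls over all other spots named by rule were 7 muscle genes, *Smpx* (log2 fold -3.26), *Trdn*, *Myot*, *Cox6a2*, *Rpl3l*, *Nrap* and *Myh1*, the melanosome exchanger *Slc24a5* (-2.63), the hair cycle signal *Fgf5* (-2.48) and the factor *Foxe1* (-2.43).

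Fat cell markers split. Of 8 measured, 1 was higher and 3 were lower than in all other spots, and 2 were higher and 1 lower of 6 against the spots beside. For the 3 sets described below, 3 of 4 were higher than in upper follicle and 2 of 4 higher than in interfollicular epidermis spots, with 0 lower in each. Against dermal adipose spots, whose score genes are left out, 1 of 1 was lower. *Adig*, adipogenin, was at 60.7, 84.2, 50.9 and 47.04 CPM in slices 1 to 4 against 15.1, 13.6, 14.1 and 18.7 and 11.3, 10.03, 9.61 and 9.70 (log2 fold 1.98 over the spots beside and 2.55 over all others). It was above both sets in every slice. *Retn*, resistin, was called against the spots beside (1.09) and stood under 2-fold against all others (0.85). The adipocyte hormone gene *Adipoq* was at 18.9, 14.3, 22.5 and 24.1 against 41.8, 41.2, 42.2 and 52.5 and the complement factor *Cfd* at 208, 117, 195 and 163 against 381, 371, 428 and 415, both lower without overlap (log2 folds -1.16 and -1.23).

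**Figure D3:**
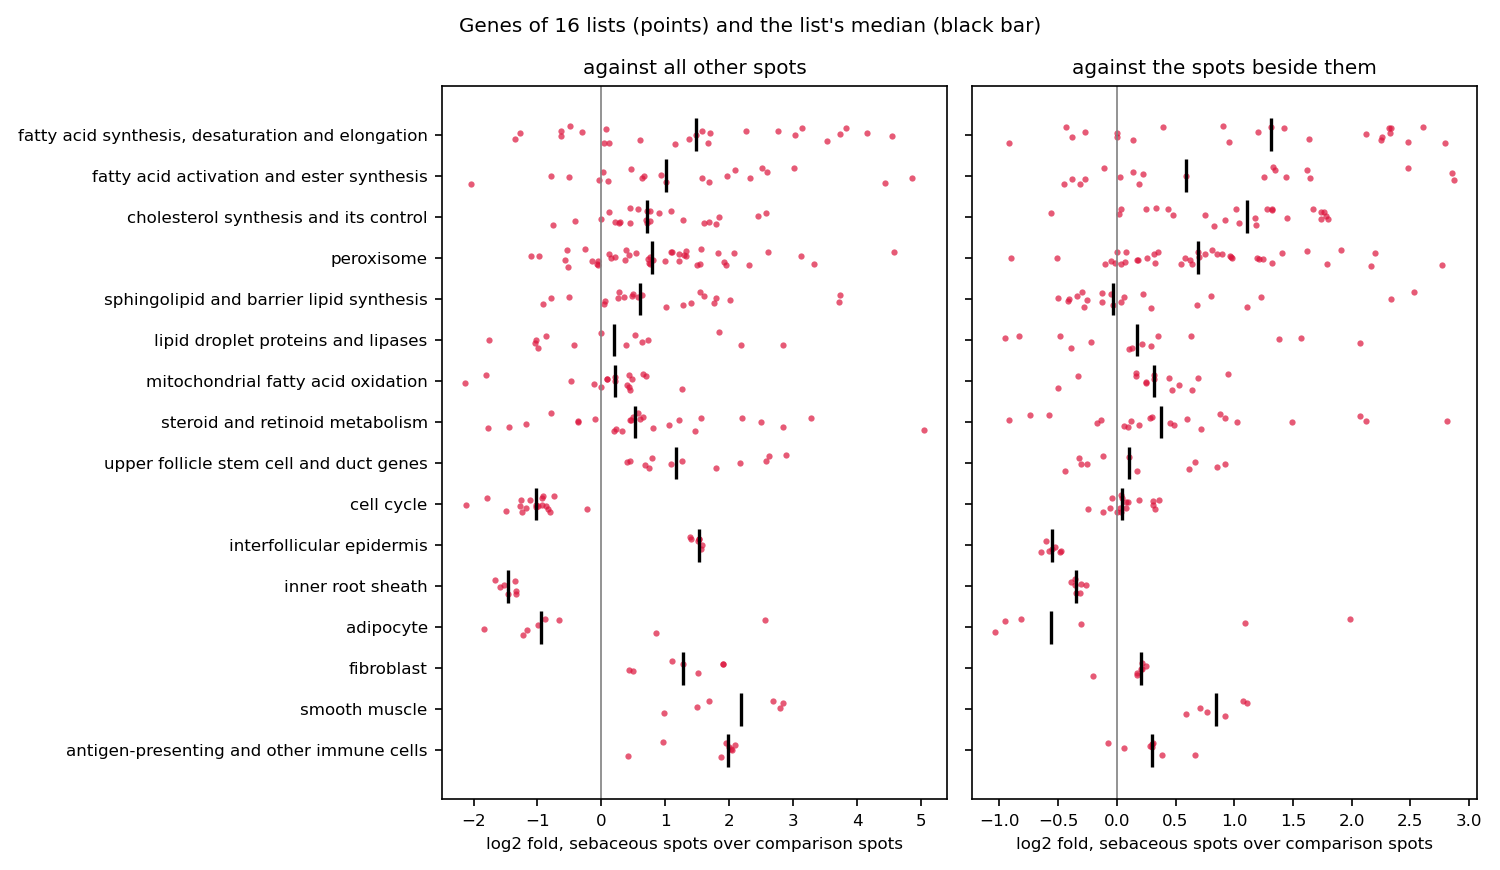
Log2 fold of each measured gene (point) of 16 lists, sebaceous spots over all other spots (left) and over the spots beside them (right), with the list's median as a black bar. The fatty acid synthesis median is 1.47 at left and 1.31 at right, whereas the interfollicular epidermis median goes from 1.52 to -0.56 and the cell cycle median from -1.02 to 0.04.

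Levels were followed by the number of grid steps from the nearest sebaceous spot, as a description with the mean and SD of 4 slices. *Elovl6* was at 1415 ± 16.4 CPM in the sebaceous spots, 237 ± 23.96 at 1 step, 112 ± 4.67 at 2 steps and 46.1 ± 3.07 at 4 steps. *Msmo1* dropped at the first step from 558 ± 67.8 to 169.5 ± 18.2 and stood at 85.2 ± 12.5 at 3 steps. *Krt79* went from 1684 ± 194 to 944 ± 51.3 and 402 ± 66.03 over the first 2 steps. By contrast *Lor* was higher at 1 step (1968 ± 212) than in the sebaceous spots (1329.9 ± 294), and *Col1a1* went from 10224 ± 1741 to 8934 ± 1424 at 1 step, 4927 ± 868 at 2 steps and 995 ± 253 at 4 steps. *Mki67*, a marker of dividing cells, was at 51.8 ± 8.55 in the sebaceous spots, 46.3 ± 7.13 at 2 steps and 148 ± 12.6 at 6 or more.

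**Figure D4:**
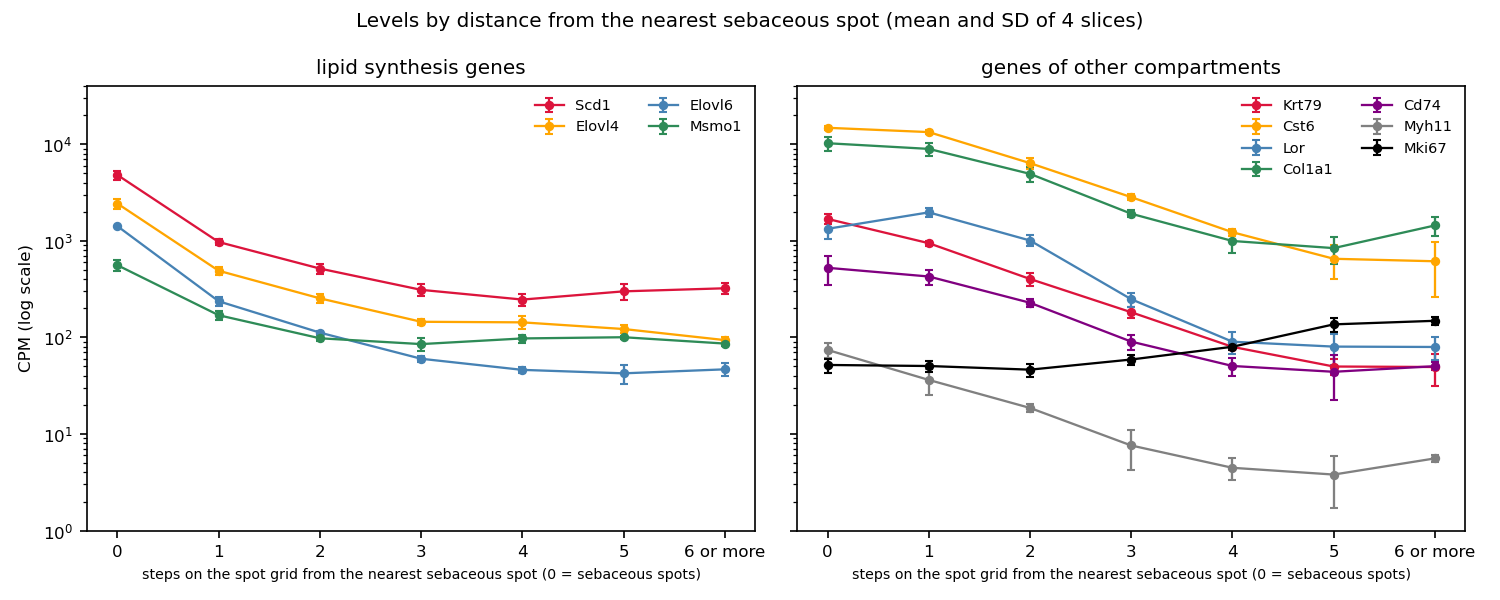
CPM (log scale, mean and SD of 4 slices) by grid steps from the nearest sebaceous spot, for 4 lipid synthesis genes (left) and 7 genes of other compartments (right). *Elovl6* goes from 1415 ± 16.4 at 0 steps to 237 ± 23.96 at 1 step, while *Col1a1* is at 10224 ± 1741, 8934 ± 1424 and 4927 ± 868 at 0, 1 and 2 steps.

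Among the sebaceous spots themselves *Scd1*, *Elovl4*, *Elovl6* and *Msmo1* followed the score, again as a description. Other lipid genes outside the score were not followed by band. In the top 1% of scores in each slice (65 spots) *Scd1* was at 9424 ± 1570.0 CPM, in the next band to 3% (128 spots) at 4783 ± 763, in the band from 3 to 5% (128 spots) at 2722 ± 334 and just outside the cut, from 5 to 7% (128 spots), at 1899 ± 252. *Elovl4* went from 5609 ± 1292 through 2081 ± 166 and 1350.4 ± 180.5 to 886 ± 185 over the same bands. There was no step at the cut. *Cst6*, at 14374 ± 1237 and 18927 ± 1155 in the first and the fourth of these bands, and *Defb6*, a defensin of the upper follicle, at 282 ± 109 and 369 ± 88.8, were no lower outside the cut than in the top band. *Lor* was at 989.9 ± 344 in the top band and 1453 ± 453 outside the cut. The bands share the score's genes and the spots' depth with the choice of members.

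**Figure D5:**
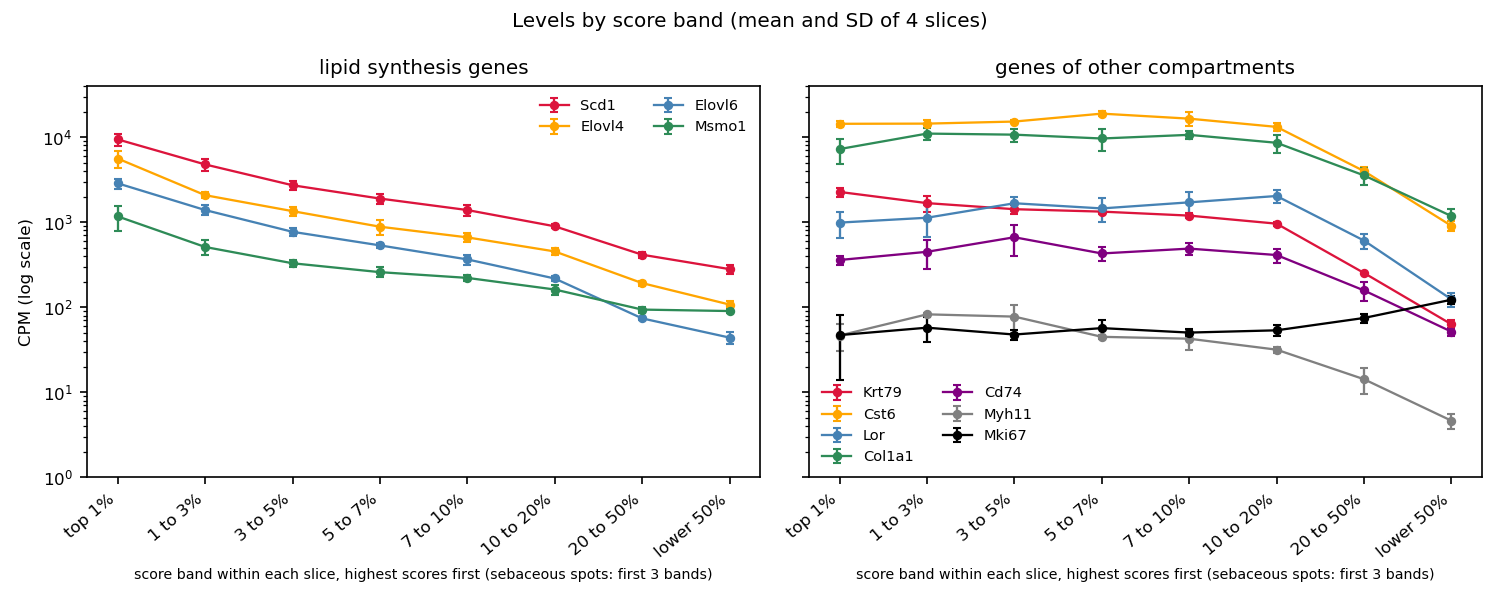
CPM (log scale, mean and SD of 4 slices) by score band within each slice, with the sebaceous spots in the first 3 bands. *Scd1*, *Elovl4*, *Elovl6* and *Msmo1* descend from the top band on, whereas *Cst6* is at 14374 ± 1237 in the top band and 13219 ± 1336 in the band from 10 to 20%.

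The sebaceous spots were set against 3 sets of the same size, chosen in the same way from other genes, after the spots common to both were left out of each. The upper follicle set (score over *Krt79*, *Krt17*, *Defb6*, *Cst6*, *Gata6* and *Plet1*) shared 56 spots, the interfollicular epidermis set (*Lor*, *Krt1*, *Krt10*, *Krt77*, *Krtdap* and *Calm4*) 14 and the dermal adipose set (*Adipoq*, *Retn*, *Cfd*, *Lep*, *Adig* and *Plin4*) 3. The genes that chose a set are left out of its counts.

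Against the upper follicle spots, 196 of 6999 genes (2.8%) were higher in the sebaceous spots and 111 (1.59%) lower. Fatty acid synthesis genes were higher in 13 of 20 cases and cholesterol genes in 13 of 22 (median log2 folds 1.46 and 1.24, against 0.02 over all genes). The 5 largest rises were *C130079G13Rik* (3.24), *Cyp1a1* (3.22), *Gm35986*, *Cyp17a1* and *Serpina3j*. The largest falls were *AA467197* (-3.17), *Naip1*, *Slc4a11* (-1.88), the serine protease *Prss27* and *Pla2g7*. *Egr2* was 104 ± 16.7 CPM in the upper follicle spots against 57.5 ± 10.6 in all sebaceous spots (SD, n = 4 slices), and was called lower in the sebaceous set without shared spots (log2 fold -1.10 ± 0.14, SE; adjusted p = 1.63e-06 by edgeR). *Lrig1* was lower too (-1.15).

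Against the interfollicular epidermis spots, 321 of 7420 genes (4.33%) were higher and 365 (4.92%) lower. The largest falls were the cornified envelope genes *Hrnr* (-3.53), *Lce1c* (-3.47) and *Lce1h*, with *Otop3* and *Ly6m*. Sphingolipid and barrier lipid genes went both ways, 3 higher and 8 lower of 20 (median -0.45), and the elongase *Elovl1* was lower in the sebaceous spots (-2.45) while *Elovl6* was higher (2.50). *Dgat2* was also lower there (-1.42) and *Dgat1* higher (1.52). Led by *Cyp1a1* (3.64), the 5 largest rises also held *Hamp2*, *Pnpla5*, *Acaa1b* and *Gm13178*.

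Against the dermal adipose spots, another lipid-storing compartment, 682 of 9029 genes (7.55%) were higher and 433 (4.8%) lower. *Pnpla5* led the rises (log2 fold 6.72), with *Hamp2*, *Serpina3b*, *Serpina3j* and *Rarres1*. *Pck1*, phosphoenolpyruvate carboxykinase (-4.14), *Nnat*, *Hp*, haptoglobin, *Thrsp* and *Cidec* (-3.56) led the falls. *Scd1* differed between them by 2.27, *Fasn* by 0.66 and *Plin2* by 2.09 on the log2 scale, all higher in the sebaceous spots though *Fasn* was under 2-fold (adjusted p = 1.23e-06 by edgeR). Of lipid droplet genes 3 were higher and 5 lower of 13, and of fatty acid synthesis genes 15 and 2 of 23.

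The share of sebaceous spots was not even across a slice. When each slice was cut into 3 strips of equal numbers of spots across its width, 2.57% to 9.26% of a strip's spots were sebaceous. The log2 ratio of *Scd1*, sebaceous over other spots of the same strip, ranged from 3.07 to 4.33 over the 12 strips, and that of *Krt79* from 1.80 to 3.98. Both were above 0 in each strip. The strips were cut by position, and no label ties them to mice. Sex-linked transcripts differed between them: *Xist*, of the inactive X chromosome, gave 76.5% to 88.4% of the summed UMIs of *Xist* and 4 Y-linked genes in 1 outer strip of each slice, and 7.47% to 27.4% in the other strips. That outer strip had the highest share of sebaceous spots in slices 1 and 2 and not in slices 3 and 4. The part of sex or mouse in the share of sebaceous spots was not tested.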

How the data were processed

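RNA was measured on 4 Visium slices of fresh-frozen skin sections. The authors deposited unnormalized UMI counts for each spot, produced by Space Ranger 2.0.1 against mm10 per the labels and file headers, together with spot positions. Spots under 250 detected genes were left out (9 of 6420 over tissue). Of 2483 spot barcodes 1840 occurred in more than 1 slice, since capture areas use 1 barcode set.

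UMIs were summed per slice and set of spots. Sets were compared with edgeR 4.0.16 in R 4.3.3 (TMM, filterByExpr, quasi-likelihood test, slice as a block, Benjamini-Hochberg adjustment over all genes tested), and a call needed an adjusted p under 0.05 and at least 2-fold. The slice numbers pair the sets because both come from the same slice. The fit was also run on simulated sums in which 200 genes were changed by a log2 fold of 1 up or down. These sums had no slice effect and no changed genes of low count, so the run does not cover those cases. Levels are CPM, from the set's sum of UMIs; folds are fitted. Depth per spot differs between sets, so low genes rest on few UMIs. Single values were compared by an exact sign-flip permutation test over slices. DESeq2 1.42.0 and the other alternatives are in the closing section. Named genes were the 2 to 4 largest folds among the called of each list, the 15 largest rises and 10 largest falls over all other spots, the 5 largest each way for the other sets (mean of at least 20 CPM in the higher set, same direction in 4 of 4 slices) and the genes the study follows; further genes were named after their values were seen. The members and lists were chosen with earlier results of these data known. Of 32286 features, 32235 had an identifier in GENCODE M21 (GRCm38), from which gene positions were taken. CreERT was not analysed here, and some genes of the lists are counted but not reported by name here.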

Additional observations from a re-analysis of the deposited data

Results flagged for a closer look

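Of 98 levels in groups of 4 slices, 6 had 1 slice that lay far from the nearest other slice by Dixon's test at its 95% critical value, and chance gives about 1 in 20. In the sebaceous spots *Awat2* was at 26.5 CPM in slice 4, against 61.7 to 64.2 in the other slices. *Acsl5* was at 398 in slice 2 (326 to 334 elsewhere) and *Cat* at 298 in slice 3 (262 to 264 elsewhere). *Acaca* was at 34.4 in slice 3 (45.6 to 47.0 elsewhere), *Lef1* at 5.71 in slice 2 (13.9 to 14.98 elsewhere) and *Pmel*, a melanosome gene, at 32.8 in slice 2 (71.2 to 74.9 elsewhere).

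The tdTomato reporter, which entered no comparison, had 5 UMIs in the sebaceous spots, or 1.56 CPM, over the limit of 0.937 CPM that a count of 0 (3 UMIs) allows, and 98 UMIs, or 1.11 CPM, in the other spots. These limits cover counting error only, and with 5 UMIs no difference between the sets was detectable.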

How the results depend on the processing

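Counts of called genes moved by over 1.5 times in these cases, given for genes higher and lower in the sebaceous spots. With at least 50 UMIs in every sum, where fewer genes were tested, they were 245 and 106 against all other spots, 99 and 1 against the spots beside, 20 and 42 against upper follicle, 51 and 130 against interfollicular epidermis and 223 and 69 against dermal adipose spots. With 3 strips per slice, whose sums are smaller, they were 824 higher against all other spots, 151 and 9 against the spots beside, 112 and 67 against upper follicle, 168 and 190 against epidermis and 317 and 148 against adipose spots. Thinned to 5000 UMIs, 713 were higher than in all other spots and 373 than in adipose spots. Without the low-count filter, 63 were lower than in the spots beside, 497 higher and 554 lower than in epidermis and 692 lower than in adipose spots. DESeq2 gave 16 lower than in the spots beside. Thinning also changed the choice of spots, and its cause and those for DESeq2 and the unfiltered genes were not tested. All other counts, including those with library size alone, at least 500 genes per spot, the top 3% or 10%, scores over 3 genes and other spots without those beside, stayed within 1.5 times. With each slice left out in turn, calls against all other spots ranged from 1078 to 1216 higher and 770 to 920 lower, with 1216 and 920 without slice 4. Without the pairing by slice as a block, 1267 were higher and 841 lower, and no count moved by over 1.5 times. Of 1926 log2 folds of 116 named genes over all other spots under these alternatives, 1869 kept their direction and their call, 28 lost the call, 26 gained it and 3 changed sign without being called. *Acaca* turned to -0.0747 with the top 10%, and *Acsl1* to 0.0797 with the top 10% and 0.0138 without the spots beside. The call was lost under at least 1 alternative by *Ctsd*, *Ly6a*, *Cidec*, *Lipe*, *Mc5r*, *Lor*, *Scd2*, *Idi1*, *Adipoq*, *Cfd*, *Stra6* and *Lgr6*, and gained by *Plin4*, *Agps*, *Mki67*, *Retn*, *Egr2*, *Dgat2* and *Hadh*. Of these, a single slice left out took *Ctsd* to 0.99 (slice 2) and 0.94 (slice 3), *Cidec* to -0.94 (slice 2) and -0.92 (slice 4), *Lipe* to -0.93 (slice 3) and -0.97 (slice 4) and *Mc5r* to 0.9995 (slice 1), all just under 2-fold. It took *Plin4* to -1.14 (slice 3) and -1.19 (slice 4), *Agps* to -1.21 (slice 4), *Retn* to 1.00 (slice 3) and *Mki67* to -1.04, -1.07 and -1.03 (slices 2, 3 and 4), which were then called. By the fitted folds 22 of 28 lists had a median gene higher than in all other spots, and by the mean of log values per spot 21. Depth limits the low genes: 12.5% of sebaceous and 6.19% of other spots had under 5000 UMIs.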
